A study of Mus musculus with 6 samples.

Results

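The TGF-beta, BMP and ID genes are 10 genes of one signalling family, taken here as the secreted ligands Tgfb1, Tgfb2, Inhba, Bmp2 and Bmp4, the inhibitory SMADs Smad6 and Smad7, and the nuclear regulators Id1, Id2 and Id3. They were found as every probe set, a group of short array probes for one transcript, whose platform annotation gives exactly 1 of these symbols. All 10 were found, with 18 probe sets of the 45037 tested, out of 18193 genes that the annotation names singly. The match used symbols alone. Tgfb2 has 4 probe sets, Id2 has 3, Tgfb1, Inhba and Smad7 have 2 each, and the other members have 1. Probe sets of a gene read the same transcripts and are not replicates, and 3 of those of Tgfb2 were designed on a single reference sequence.

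RNA was measured on 6 Affymetrix arrays of mouse mesenchymal stem cells, a commercial stock of multipotent stromal cells. Each of 3 experiments held 1 culture irradiated for 2 h by a pulsed terahertz source with a broad spectrum and 1 unexposed control beside it, both at 26 to 27 °C. The source gave 35 fs pulses centred near 10 THz, at 1 kHz and an average of 1 mW/cm2, and RNA was taken directly afterwards. Both arms were grown with 5% serum and given an adipogenic mix again 48 h earlier, made of 1 µM dexamethasone, 100 µM IBMX, 5 µg/ml insulin and 1 µM rosiglitazone. The controls therefore carry the same 4 agents, and IBMX, which raises cAMP, and dexamethasone, which activates the glucocorticoid receptor, act on both arms. The strain, sex and age of the source animals and the passage of the cells were not given in the sources used here. The labels name the replicates biological and nothing says whether experiments used separate cell stocks, so p-values measure the spread between these cultures.

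TGF-beta and activin ligands signal through receptor kinases that phosphorylate one set of SMAD proteins, and BMP ligands through kinases that phosphorylate another. Both kinds of SMAD join the shared partner Smad4 and enter the nucleus. Among the genes they switch on are Smad6 and Smad7, which block the pathway in a feedback loop, and in BMP signalling the ID genes. ID proteins lack a DNA-binding region and hold helix-loop-helix transcription factors away from DNA. In mesenchymal cells TGF-beta generally restrains fat formation, while BMP ligands can favour commitment to fat, bone or cartilage depending on dose and setting.

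Values are the deposited log2 levels, so a difference of 1 is a doubling. Each probe set has its own scale, and levels are compared between arrays only, never between genes. Differences were tested with limma over all 45037 probe sets, with p adjusted by the Benjamini-Hochberg method and a threshold of 0.05. A difference is given as estimate ± SE of that fit.

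The labelled cell type was set against marker lists. Of the 9 measured stromal markers 1, Thy1, lay below 4.84, the median level of all probe sets, at 3.51 to 4.07. All 7 adipocyte markers were well above that median in both arms, with list means of 12.04 to 12.32. All 8 macrophage and leukocyte markers were above it too, with list means of 11.03 to 11.29, and Ptprc, the pan-leukocyte CD45 gene, stood at 9.55 to 10.09 on the 6 arrays. Of 6 endothelial markers 5 lay below the median level. In such bulk RNA, fewer cells of a type and less RNA per cell cannot be told apart. The immediate early list holds 8 genes that respond to handling and stress, among them the heat shock gene Hspa1a. The list means were 8.87 and 8.82 in experiment 1, 11.2 and 11.16 in experiment 2, and 12.32 and 12.25 in experiment 3. Hspa1a had the largest difference between experiments 3 and 1, 6.85, and all 8 genes passed there. RNA integrity was read as the 3′ minus 5′ difference of Gapdh controls, which stood at 0.19 and 0.23 for experiment 1 and at -0.05 to -0.01 for the other 4 arrays. The same difference for Actb was 0.75 and 0.76 in experiment 1, 0.62 and 0.61 in experiment 2, 0.72 in control 3 and 0.62 in irradiated culture 3. The spike-in controls averaged 11.63 on the array of control 3 against 11.06 to 11.25 on the other 5 arrays.

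Irradiated and control cultures were compared first, the comparison the study was designed for. None of the 18 probe sets passed (0 of 18, against 0% of the 45037 probe sets tested), and none had an unadjusted p under 0.05, which 2237 of all probe sets had. Differences ran from -0.16 to 0.19 with adjusted p between 0.93 and 0.99. They were positive for 7 probe sets and negative for 11, with a median of -0.04 beside 0.0033 over all probe sets. For 16 of 18 the 95% interval excluded a 1.5-fold difference either way, and for all 18 a 2-fold one, against 97.2% and 99.9% of all probe sets. The 2 that were wider belong to Inhba and Bmp2. One direction in all 3 pairs was seen for 2 of the 18, a probe set each of Inhba and Id2, where 23.8% of all probe sets show it. The levels of the arms did not overlap for 1, a dim Inhba probe set, where 6.73% of all probe sets do not overlap.

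**Figure D1:**
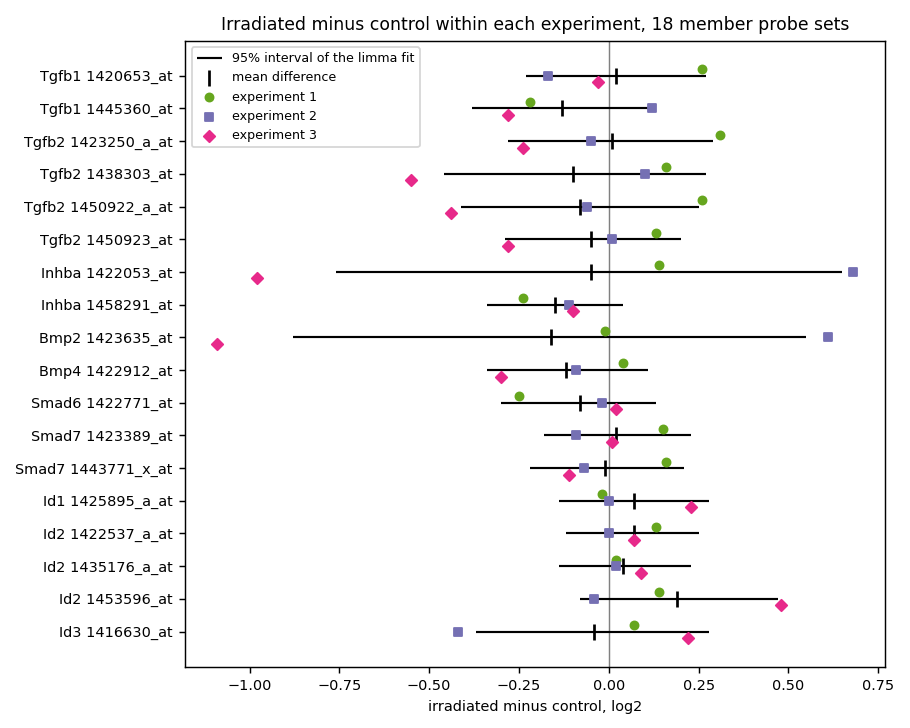
Irradiated minus control log2 difference of the 18 probe sets, with a point for each of the 3 experiments and the mean with its 95% interval from limma. All 18 intervals span 0, and the points of Inhba (1422053_at) and Bmp2 spread from about 1 below 0 in experiment 3 to over 0.6 above it in experiment 2.

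Between experiments, Id2 differed and the ligands and other members did not pass. All 3 Id2 probe sets were higher in experiment 3 than in experiment 1, by 1.47-fold to 2.45-fold, with both cultures of experiment 3 above all other arrays on each. No other member passed in any of the 3 contrasts between experiments. The largest other values between experiments 3 and 1 were those of Bmp2 (1.37 ± 0.36), Inhba (0.79 ± 0.35), Smad6 (-0.56 ± 0.11) and Bmp4 (0.52 ± 0.11), with adjusted p from 0.055 to 0.30. The 3 contrasts share arrays, rest on 2 cultures per experiment and are not independent of each other. Experiments can differ in cells, day, handling and array processing, and these cannot be told apart here.

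The called share of the 18 member probe sets is set beside that of all probe sets. The members were chosen with earlier results of these data known, so this is a description and not a test. Experiment 2 against experiment 1 gave 0 of 18, against 0.52% of all probe sets. Of the 18 probe sets 4 had an unadjusted p under 0.05, which 4456 of all 45037 had. Experiment 3 against experiment 1 gave 3 of 18, against 3.05% of all probe sets in either direction and 1.87% higher in experiment 3. All 3 belong to a single gene, Id2, and 570 of all 18193 genes passed on 1 probe set each. An unadjusted p under 0.05 was found there for 7 of the 18 and for 8619 of all probe sets. Experiment 3 against experiment 2 gave 0 of 18, against 0.0355% of all probe sets. In that contrast 6 of the 18 and 4454 of all probe sets had an unadjusted p under 0.05. The median differences of the 18 probe sets were -0.07, 0.12 and 0.24 in these contrasts, beside -0.01, -0.01 and -0.005 over all probe sets. In the third contrast 15 of the 18 were positive, and the share of positive differences over all probe sets was not counted. Leaving out any 1 of the 6 arrays leaves the fit with 1 residual degree of freedom among samples, and then 0 of all probe sets passed in any contrast between experiments.

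**Figure D2:**
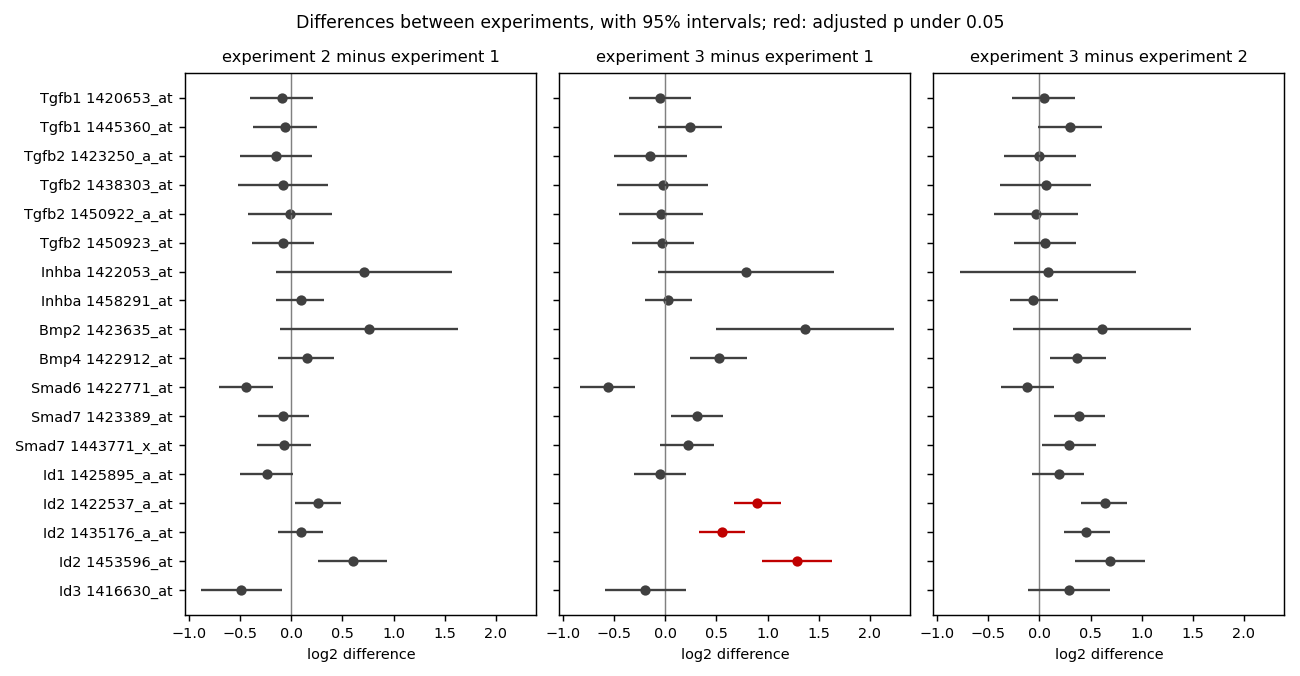
Log2 differences of the 18 probe sets between experiments in 3 panels, each with its 95% interval from limma, red where adjusted p is under 0.05. The 3 Id2 probe sets are the red points, between 0.55 and 1.29 in the panel of experiment 3 minus experiment 1.

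None of the TGF-beta ligand probe sets passed in any contrast. Tgfb1, the main circulating isoform, stood at 6.26, 6.38 and 6.35 in controls 1 to 3 and at 6.52, 6.21 and 6.32 in the irradiated cultures. The arms overlapped, and irradiated culture 1 was the highest array and irradiated culture 2 the lowest. The irradiated minus control difference was 0.02 ± 0.10 and the pair differences were 0.26, -0.17 and -0.03. Its other probe set averaged 4.64, below the median level, with a difference of -0.13 ± 0.10. Tgfb2, an isoform with roles in development, stood on its brightest probe set at 8.53, 8.51 and 8.71 in controls and at 8.66, 8.52 and 8.43 in irradiated cultures. Control 3 was the highest and irradiated culture 3 the lowest, and the difference was -0.05 ± 0.10. The 3 other Tgfb2 probe sets ranged from -0.10 to 0.01 in the mean, and in experiment 3 all 4 were negative, from -0.55 to -0.24. Pair differences spanned 0.71 on 1438303_at and 0.70 on 1450922_a_at, spans that 5.2% and 5.83% of all probe sets reach, and 0.41 on the brightest, which 28.2% reach. Neither gene passed between experiments. Their differences between experiments 3 and 1 were -0.05 ± 0.13 for Tgfb1 and -0.03 ± 0.12 for Tgfb2 on the brightest probe sets, with intervals of -0.36 to 0.25 and -0.33 to 0.28.

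Inhba, whose product forms activin A, was the most uneven of the ligands together with Bmp2. RefSeq places it on chromosome 13, from 16004256 to 16031609, on GRCm38.p6. It stood at 9.28, 9.72 and 10.63 in controls and at 9.42, 10.4 and 9.65 in irradiated cultures, averaging 9.88 ± 0.69 (SD, n = 3) and 9.82 ± 0.51 (SD, n = 3). Both cultures of experiment 1 were the lowest, and the highest were control 3 and irradiated culture 2, so the arms overlapped. The pair differences were 0.14, 0.68 and -0.98, and their mean was -0.05 ± 0.29 with an interval from -0.76 to 0.65. A span of pair differences as wide as these 1.66 was found in 0.04% of all probe sets (18 of them, Inhba included). Without experiment 3 the mean was 0.41, without experiment 2 it was -0.42, and it was called in neither case (limma adjusted p = 0.91 and 0.89). The 0.79 between experiments 3 and 1 became 0.10 without control 3 and 1.48 without irradiated culture 3. The other Inhba probe set is dim, at 3.32 to 3.58, and its difference of -0.15 ± 0.08 did not pass.

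Bmp2, a BMP ligand that can drive bone formation, was as uneven. RefSeq places it on chromosome 2, from 133552159 to 133562896. Controls stood at 6.02, 6.47 and 7.93 and irradiated cultures at 6.01, 7.08 and 6.84. The cultures of experiment 1 were the lowest and within 0.01 of each other, and control 3 lay above every other array. The means were 6.81 ± 1 (SD, n = 3) and 6.64 ± 0.56 (SD, n = 3). The pair differences were -0.01, 0.61 and -1.09, with a mean of -0.16 ± 0.29 and an interval from -0.88 to 0.55. Only 0.0289% of all probe sets (13) had a span as wide as 1.7. The mean was 0.30 without experiment 3 and -0.55 without experiment 2, again not called (adjusted p = 0.91 and 0.89 by limma). Between experiments 3 and 1, Bmp2 differed by 1.37 ± 0.36, or 2.58-fold (adjusted p = 0.11, and 0.03 with an intensity trend in the test), which became 0.67 without control 3 and 2.06 without irradiated culture 3. Control 3 is the array with the highest spike-in mean and differs from irradiated culture 3 in the Actb value, and the part of these in the Inhba and Bmp2 values was not tested.

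Bmp4, a ligand that can commit mesenchymal cells to the fat lineage, was steadier. It stood at 9.55, 9.76 and 10.24 in controls and at 9.59, 9.67 and 9.94 in irradiated cultures. Both cultures of experiment 3 were above the other 4 arrays, and the arms overlapped. The irradiated minus control difference was -0.12 ± 0.09, from pairs of 0.04, -0.09 and -0.30. Between experiments 3 and 1 the difference was 0.52 ± 0.11, or 1.43-fold, and did not pass (adjusted p = 0.077). It passed with a filter on dim probe sets (adjusted p = 0.036) and with an intensity trend (adjusted p = 0.0081).

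Control 3 gave the highest level, alone, on 8 of the 18 probe sets, where 21.7% of all probe sets have their highest level there. These were the 1445360_at probe set of Tgfb1, 3 of 4 for Tgfb2, and 1 each for Inhba, Bmp2, Bmp4 and Smad7. None of the Id probe sets was among them.

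**Figure D3:**
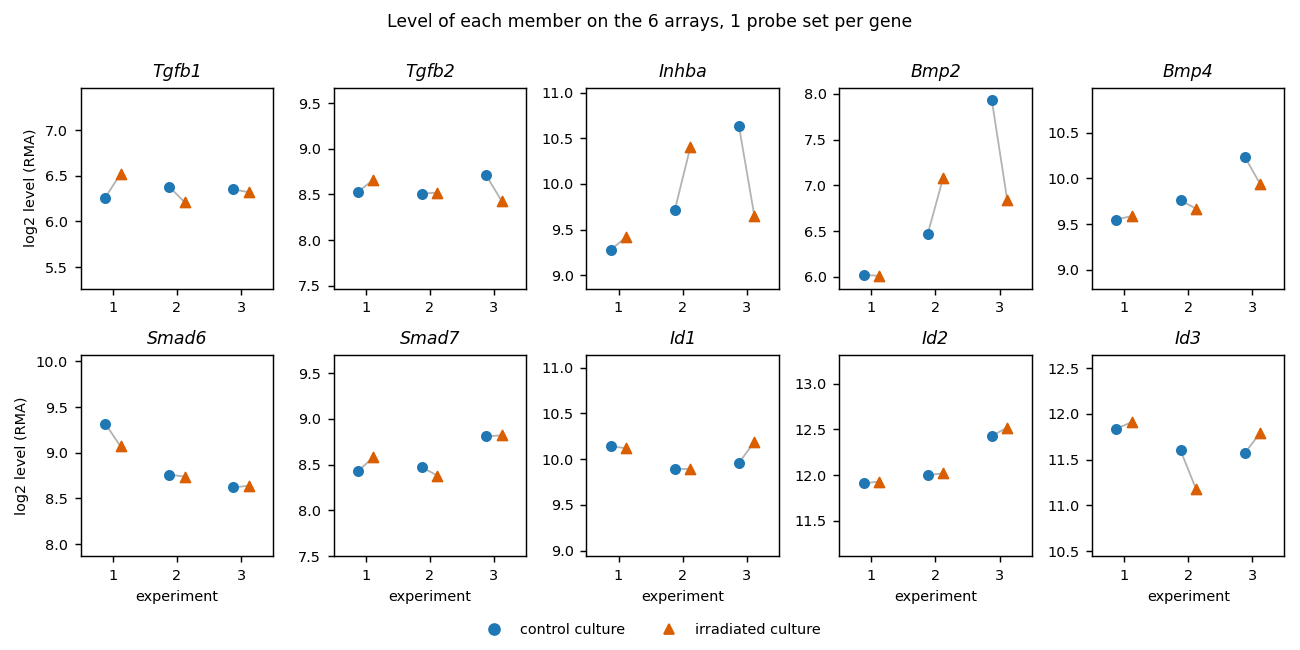
Log2 level of the 10 genes on the 6 arrays, 1 probe set each (the brightest), by experiment, with circles for controls and triangles for irradiated cultures. Every panel spans 2.2 log2 units, and the arms part most for Inhba and Bmp2, upward in experiment 2 and downward in experiment 3, while Id2 is higher in experiment 3 in both arms.

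Neither inhibitory SMAD gene passed in any contrast of the fit described above. Smad6, which mainly blocks BMP receptors, stood at 9.32, 8.76 and 8.62 in controls and at 9.07, 8.74 and 8.64 in irradiated cultures. Both cultures of experiment 1 were above the other 4 arrays. The difference between arms was -0.08 ± 0.09, with pairs of -0.25, -0.02 and 0.02. Smad6 was lower in experiment 3 than in experiment 1 by a value that did not pass (-0.56 ± 0.11, 1.48-fold, adjusted p = 0.055), and its difference between experiments 2 and 1 was -0.44 ± 0.11 (adjusted p = 0.25). The first of these passed by limma with a filter on dim probe sets (adjusted p = 0.025), an intensity trend (adjusted p = 0.0059) and no term for arm (adjusted p = 0.034). It also passed in the fit on gene means (adjusted p = 0.034). Smad6 has a single probe set, so its own values are unchanged in that fit. Smad7, which blocks both branches, stood at 8.43, 8.47 and 8.81 in controls and at 8.58, 8.38 and 8.82 in irradiated cultures on its brighter probe set. Both cultures of experiment 3 were the highest, within 0.01 of each other. The difference between arms was 0.02 ± 0.08. Between experiments 3 and 1 it was 0.31 ± 0.10 (adjusted p = 0.18), and 0.22 ± 0.11 on the other probe set (adjusted p = 0.35).

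Promoter windows are given for Id2, the member that passed between experiments, for Id3, an ID gene that did not, and for Smad6, which had the smallest adjusted p of the members that did not pass between experiments 3 and 1. The sequences are RefSeq's on mouse assembly GRCm38.p6, 5′ to 3′ on the gene's strand. They run from 250 bases before to 50 after the start of transcription used for each window. That start is the 5′ end of the RefSeq gene for Id2 and Id3. For Smad6, which RefSeq places on chromosome 9 from 63953076 to 64022085, it lies inside the gene. Of the 10 members 7 matched an entry by symbol, and Bmp2, Id1 and Smad7 did not. The windows lie at chr12:25096043-25096342 on the minus strand for Id2, chr4:136143572-136143871 on the plus strand for Id3 and chr9:64022010-64022309 on the minus strand for Smad6. Capitals mark matches to the motifs searched, described after the sequences.
Id2 promoter: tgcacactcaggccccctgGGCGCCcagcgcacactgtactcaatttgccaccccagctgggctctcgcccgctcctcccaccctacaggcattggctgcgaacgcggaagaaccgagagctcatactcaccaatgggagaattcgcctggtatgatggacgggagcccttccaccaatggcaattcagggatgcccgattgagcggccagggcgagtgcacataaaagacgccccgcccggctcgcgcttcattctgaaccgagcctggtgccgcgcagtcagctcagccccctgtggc
Id3 promoter: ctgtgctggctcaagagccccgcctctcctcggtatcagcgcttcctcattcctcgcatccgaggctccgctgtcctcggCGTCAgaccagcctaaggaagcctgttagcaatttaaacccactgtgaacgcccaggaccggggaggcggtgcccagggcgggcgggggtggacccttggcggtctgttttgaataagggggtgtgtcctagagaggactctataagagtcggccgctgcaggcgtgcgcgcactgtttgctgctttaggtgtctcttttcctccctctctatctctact
Smad6 promoter: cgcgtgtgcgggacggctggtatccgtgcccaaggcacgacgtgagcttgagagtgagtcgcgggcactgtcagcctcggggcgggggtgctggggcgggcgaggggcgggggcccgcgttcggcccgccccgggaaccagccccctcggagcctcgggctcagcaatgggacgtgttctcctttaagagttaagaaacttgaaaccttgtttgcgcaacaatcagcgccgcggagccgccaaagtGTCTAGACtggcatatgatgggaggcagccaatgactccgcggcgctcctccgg

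The motifs were searched on both strands. GGCGCC, a GC-rich element that BMP-activated SMADs can bind, begins 231 bases before the start of Id2, and 11.9% of all 32851 windows hold it. TGACG, a core of the cAMP response element, matches Id3 on the opposite strand, 170 bases before the start, and 20.8% of all windows hold it. CAGACA, an element for the shared SMAD and TGF-beta-activated SMADs, CACGTG, a form of the E-box, and TATAAA were not matched in these 3 windows. Of all windows 21.0%, 7.15% and 13.6% hold them. Other forms of the E-box were not searched. GTCTAGAC, the SMAD palindrome, was added to the search after the windows had been seen. It lies in Smad6 starting 4 bases before the start used for the window, inside the RefSeq gene, and 0.213% of all windows hold it. GTCTAGAC holds neither of the other SMAD elements in full, and the search found no overlap among the marked sites. In the windows of the other members, Tgfb2 has the SMAD element CAGACA, the cAMP core, CACGTG and the TATA motif. Inhba has the TATA motif, Bmp4 has CACGTG, and Tgfb1 has none of those searched. The windows of Tgfb2 and Inhba lie wholly inside the RefSeq genes, away from their 5′ ends. A match describes letters only.

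Of the ID genes, Id2 had the same order of experiments in both arms on its brightest probe set. RefSeq places Id2 on chromosome 12, from 25093799 to 25096092. Id2 stood at 11.91, 12 and 12.43 in controls and at 11.93, 12.02 and 12.52 in irradiated cultures on its brightest probe set. Experiment 3 was highest and experiment 1 lowest in both arms. The arms differed by 0.04 ± 0.08, with pairs of 0.02, 0.02 and 0.09 and an interval from -0.14 to 0.23. A second probe set stood at 11.19, 11.52 and 12.12 in controls and at 11.32, 11.52 and 12.19 in irradiated cultures. Again the arms lay close and experiment 3 stood above. The third was at 5.61, 6.3 and 6.73 in controls and at 5.75, 6.26 and 7.21 in irradiated cultures, and its arms differed by 0.19 ± 0.11 (adjusted p = 0.93).

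The rise of Id2 from experiment 1 to experiment 3 was 0.55 ± 0.09 on the brightest probe set (1.47-fold, adjusted p = 0.037), 0.90 ± 0.09 on the second (1.87-fold, adjusted p = 0.0091) and 1.29 ± 0.14 on the third (2.45-fold, adjusted p = 0.0099) by limma. The probe sets agree in order but not in size. Experiment 2 lay between, at 0.09 ± 0.09, 0.26 ± 0.09 and 0.60 ± 0.14 above experiment 1 (adjusted p = 0.80, 0.43 and 0.23), and experiment 3 at 0.46 ± 0.09, 0.64 ± 0.09 and 0.69 ± 0.14 above experiment 2 (adjusted p = 0.26, 0.16 and 0.27), none of them called. With an intensity trend the first 2 of the differences from experiment 2 passed (adjusted p = 0.0044 and 0.0017). Experiment accounted for 98.8%, 98.7% and 93.0% of the sum of squares of the 3 probe sets over the 6 arrays, with 2 degrees of freedom against 1 for arm and 2 for the residual. On the other member probe sets, none of them called, it ran from 1.29% for Tgfb2 1450922_a_at to 91.7% for Smad7 1423389_at and 91.8% for Smad6. The share over all probe sets was not taken. With any 1 array left out the differences between experiments 3 and 1 stayed between 0.52 and 0.59, 0.85 and 0.95, and 1.08 and 1.51, with adjusted p up to 0.44. The immediate early genes and the Gapdh and Actb 3′ minus 5′ values also differ between these experiments, with values given above, and their part in the Id2 result was not tested.

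Id1 and Id3, often raised by BMP signals together with Id2, did not share its order. Id1 stood at 10.14, 9.89 and 9.96 in controls and at 10.12, 9.89 and 10.19 in irradiated cultures. Both cultures of experiment 2 were the lowest, at an equal level. The arms differed by 0.07 ± 0.09, and experiment 3 from experiment 1 by -0.05 ± 0.11 with an interval from -0.31 to 0.20 (adjusted p = 0.82). Id3 stood at 11.84, 11.6 and 11.57 in controls and at 11.91, 11.18 and 11.79 in irradiated cultures. Both cultures of experiment 1 were the highest and irradiated culture 2 was the lowest. The arms differed by -0.04 ± 0.13, with pairs of 0.07, -0.42 and 0.22. Id3 in experiment 2 was at -0.49 ± 0.16 relative to experiment 1 (adjusted p = 0.41), and in experiment 3 at -0.20 ± 0.16 (adjusted p = 0.57). The first of these became -0.20 without irradiated culture 2 and -0.77 without control 2. A difference between Id2 and the other ID genes was not itself tested.

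Other genes of the pathway were read from a list of 64, of which 58 were measured, with 1 probe set each. Between arms 0 of the 58 passed and 0 had an unadjusted p under 0.05, with 31 positive, 27 negative and a median of 0. The smallest p on the positive side belonged to Tgfbi, a TGF-beta-induced matrix gene (0.24 ± 0.12), Tagln, a smooth muscle actin-binding gene (0.28 ± 0.15), and the ligand Bmp5 (0.15 ± 0.08). On the negative side it belonged to the BMP antagonists Nog (-0.12 ± 0.10) and Chrd (-0.11 ± 0.08) and the SMAD corepressor Tgif1 (-0.10 ± 0.08). With 1 experiment left out the values ran from 0.09 (without experiment 3) to 0.38 for Tgfbi, from 0.07 (without experiment 1) to 0.46 for Tagln, and from -0.22 to -0.03 (without experiment 1) for Nog. For Chrd and Tgif1 they ran from -0.16 to -0.05, nearest to 0 without experiment 3, and for Bmp5 from 0.12 to 0.18. Adjusted p was 0.93 to 0.94 for these 6, and Nog lies below the median level, averaging 3.93.

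Between experiments 6 calls fell on 5 of the 58 genes. The list was chosen with earlier results of these data known, so the shares set beside these counts are descriptions. Experiment 2 against experiment 1 gave 1 higher and 0 lower, against 0.649% of all genes. This was Tgif1, at 0.78 ± 0.10 (1.71-fold, adjusted p = 0.047), which missed with a robust prior (adjusted p = 0.051). Experiment 3 against experiment 1 gave 3 higher and 2 lower, against 2.07% and 1.07% of all genes, with a list median of 0.02 beside -0.02 over all genes. Experiment 3 against experiment 2 gave 0, against 0.044%. In that contrast 8 of the 58 had an unadjusted p under 0.05, which 4454 of all 45037 probe sets had.

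Bambi, a decoy receptor that blocks TGF-beta and BMP signals, had the largest of these differences. It stood at 7.08, 7.91 and 8.68 in controls and at 7.07, 8.07 and 8.42 in irradiated cultures. The arms overlapped and experiment 1 was the lowest in both. Bambi was 1.48 ± 0.12 higher in experiment 3 than in experiment 1 (2.78-fold, adjusted p = 0.0048). Id4, the remaining ID gene, stood at 9.67, 10.19 and 10.45 in controls and at 9.68, 10.08 and 10.46 in irradiated cultures. It has the same order of experiments as Id2, and was 0.78 ± 0.09 higher in experiment 3 than in experiment 1 (1.72-fold, adjusted p = 0.014). Its 2 other probe sets gave 0.88 (adjusted p = 0.02) and 0.37 (adjusted p = 0.10).

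Tgif1 stood at 8.35, 9.19 and 9.13 in controls and at 8.37, 9.08 and 8.92 in irradiated cultures. Experiment 1 stood apart below, and Tgif1 was 0.67 ± 0.10 higher in experiment 3 (1.59-fold, adjusted p = 0.029). Acvr1b, an activin type I receptor, stood at 8.8, 8.3 and 7.93 in controls and at 8.85, 8.25 and 8.13 in irradiated cultures. In experiment 3 it was at -0.79 ± 0.10 relative to experiment 1 (1.74-fold lower, adjusted p = 0.018). As the mean of its probe sets, the other of which is dim, Acvr1b was at -0.49 (adjusted p = 0.068). Ccn2, a matrix-associated TGF-beta target, stood at 12.64, 11.78 and 11.98 in controls and at 12.77, 11.95 and 11.62 in irradiated cultures. It was at -0.91 ± 0.15 (1.87-fold lower, adjusted p = 0.037) in experiment 3 relative to experiment 1. A fit with an array left out has 1 residual degree of freedom, so it cannot tell whether these calls hold. The differences between experiments 3 and 1 then ran from 1.31 to 1.64 for Bambi, 0.75 to 0.81 for Id4 and 0.57 to 0.75 for Tgif1. They ran from -0.89 to -0.69 for Acvr1b and from -1.16 to -0.65 for Ccn2.

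By role, the signs of the differences between experiments 3 and 1 were counted. Of 12 receptors 10 were negative, with a median of -0.22 and 1 called. Of 13 extracellular antagonists and latency proteins 11 were positive, with a median of 0.10 and 0 called, and of 8 intracellular and membrane inhibitors 7, with a median of 0.18 and 2 called. The 6 signalling SMADs were 3 positive and 3 negative (median -0.03), the 10 other ligands 4 and 6 (median -0.03) and the 9 targets 5 and 4 (median 0.29). The median over all genes was -0.02, and the share of each sign over all genes was not counted. These counts are descriptions with no test of their own.

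**Figure D4:**
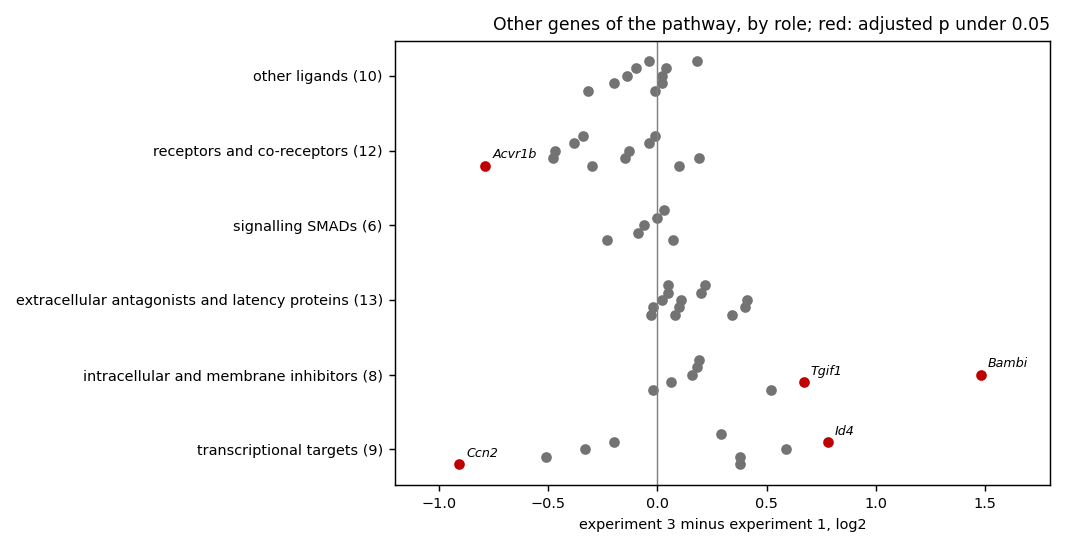
Log2 difference between experiments 3 and 1 of the 58 other pathway genes, a point each, sorted by role, red where limma's adjusted p is under 0.05. Bambi, Id4 and Tgif1 are the red points above 0, and Acvr1b and Ccn2 those below.

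Bmp2 had the widest range over the 6 arrays of the members, 1.92, and the genes nearest to it in pattern were listed. Likeness was the root mean square distance over 6 arrays after each probe set's own mean was taken off, over 18192 genes with 1 probe set each. The nearest were C1qtnf3, a secreted C1q/TNF-related gene, at 0.153, Pxdc1 at 0.166 and the zinc finger gene Zfp711 at 0.177. Pxdc1 stood at 7.75, 8.45 and 9.59 in controls and at 7.67, 8.68 and 8.87 in irradiated cultures. C1qtnf3 stood at 4.63, 5.15 and 6.22 in controls and at 4.59, 5.37 and 5.29 in irradiated cultures. Zfp711 stood at 3.52, 4.48 and 5.72 in controls and at 3.67, 5.02 and 4.76 in irradiated cultures. In all 3 control 3 was the highest array and both cultures of experiment 1 were the lowest, as for Bmp2. They were picked for this likeness out of the same arrays, so the match is a description.

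**Figure D5:**
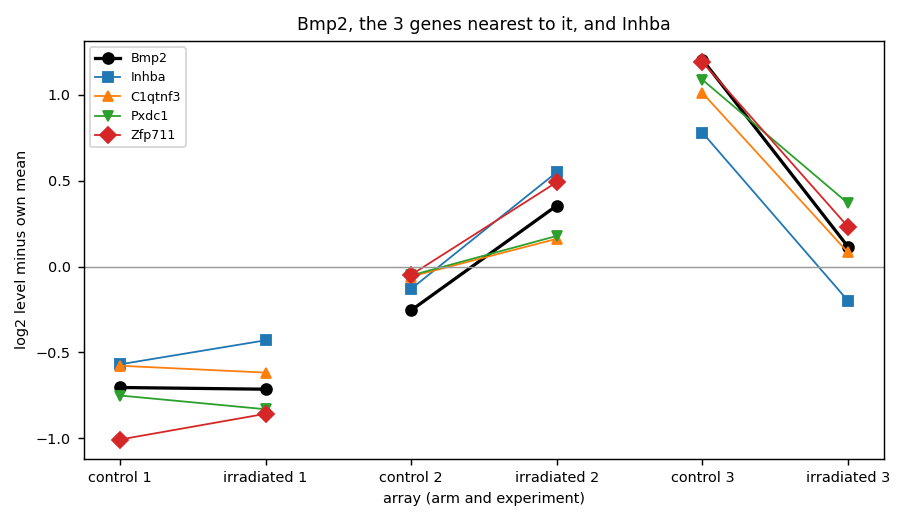
Log2 level minus the probe set's own mean over the 6 arrays for Bmp2, Inhba and the 3 genes nearest to Bmp2, with a line joining the control and irradiated culture of each experiment. Control 3 is the highest array for every gene shown, with irradiated culture 3 below it.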

How the data were processed

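Total RNA from 6 cultures, 3 irradiated and 3 control, was labelled from 200 ng by priming at the poly(A) tail and hybridized to Affymetrix arrays, per the labels' protocols. The deposited values are log2 levels of each probe set, for which the submitters' processing notes name RMA, limma and affy without versions or roles. No log base is stated, and base 2 was assumed since RMA gives that scale. RMA equalizes the arrays, so a shift shared by most transcripts cannot be seen. Affymetrix controls (64 of 45101 probe sets) were left out, and symbols come from the platform annotation (34945 probe sets with 1 symbol, 932 with several, 9160 unnamed here).

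limma 3.58.1 in R 4.3.3 (lmFit, eBayes) was fitted to all 45037 probe sets with experiment and arm as fixed terms, two-sided, with Benjamini-Hochberg adjustment and a threshold of 0.05. This leaves 2 residual degrees of freedom and a prior of 4.15, so the number of arrays limits the precision. The code of the fit was checked on simulated data with a planted log2 shift of 2. That check does not measure power at the much smaller differences between arms reported here. Pairing comes from the series design, where each irradiated culture had its own adjacent control. Deviations of paired arrays from their arm means correlated with r = 0.63, 0.14 and 0.50 across probe sets. For arrays of different experiments r ran from -0.54 to 0.15. The 0.15 was for control 3 with irradiated culture 2, so the pair of experiment 2 correlated no more closely than that.

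All probe sets of the 10 members are reported, and the brightest stands for a gene. Of the pathway list, up to 4 called genes per direction are named for each contrast between experiments, and the 3 with the smallest p per direction between arms. The 3 nearest genes are named for the member of widest range. The members and lists were chosen with earlier results of these data known. Alternatives were no block, a random block, quantile normalization, median centring, a filter on level, an intensity trend, a robust prior, array weights, the mean of a gene's probe sets, no arm term, and leaving out each experiment or array. Marker lists covered stromal, adipocyte, macrophage, endothelial, osteoblast and chondrocyte, smooth muscle and immediate early genes. Figures were drawn with matplotlib 3.10.9.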

Additional observations from a re-analysis of the deposited data

How the results depend on the processing

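Under every alternative, 0 members passed between arms. With no replicate block or with a random replicate block (consensus correlation 0.29) the irradiated minus control count stayed at 0 probe sets, so the pairing changed no call. Between experiments the counts of called probe sets moved with the test. With a filter on dim probe sets they were 374 (experiment 2 minus 1), 2513 (3 minus 1) and 64 (3 minus 2), with an intensity trend 670, 3534 and 275, and with the mean of a gene's probe sets 151, 750 and 33 genes, beside 234, 1374 and 16. With no arm term experiment 3 minus 2 gave 52. Leaving out any 1 array gave 0 in each contrast (lowest 0, highest 0). The filter tests only probe sets at or above the median level, so its counts come out of fewer probe sets. Called member probe sets between experiments 3 and 1 numbered 5 with the filter and 6 with the trend, beside 3. The 5 were the 3 of Id2 and those of Bmp4 and Smad6, and the trend added Bmp2. Between experiments 3 and 2 the trend gave 2, both of Id2. Fewer residual degrees of freedom limit the fits with an array left out, and the cause of the other moves was not tested.

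Some small member differences reversed sign. Between arms these were Tgfb1 1420653_at (0 with median centring, -0.05 with the mean of probe sets), Tgfb2 1423250_a_at (-0.01 with median centring), Inhba 1422053_at (0.09 with array weights) and Smad7 1443771_x_at (0 with array weights). Between experiments they were Tgfb2 1450922_a_at (0, 2 minus 1, quantile normalization), Tgfb2 1438303_at (0.01, 3 minus 1, quantile normalization) and Tgfb1 1420653_at (0.09, 3 minus 1, mean of probe sets). The cause was not tested.

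With 1 experiment left out, differences between arms that changed sign ranged from -0.55 to 0.30 for Bmp2 1423635_at, -0.01 to 0.11 for Id1 1425895_a_at, -0.17 to 0.14 for Id3 1416630_at and -0.42 to 0.41 for Inhba 1422053_at. In the same contrast they ranged from -0.14 to 0 for Smad6 1422771_at, -0.04 to 0.08 for Smad7 1423389_at, -0.09 to 0.04 for Smad7 1443771_x_at and -0.10 to 0.11 for Tgfb1 1420653_at. In the same contrast they ranged from -0.15 to 0.13 for Tgfb2 1423250_a_at, -0.23 to 0.13 for Tgfb2 1438303_at, -0.25 to 0.10 for Tgfb2 1450922_a_at and -0.14 to 0.07 for Tgfb2 1450923_at. With 1 array left out, those between experiments 2 and 1 ranged from -0.18 to 0.02 for Smad7 1423389_at, -0.20 to 0.05 for Smad7 1443771_x_at, -0.28 to 0.08 for Tgfb1 1420653_at and -0.24 to 0.13 for Tgfb1 1445360_at. In the same contrast they ranged from -0.38 to 0.08 for Tgfb2 1423250_a_at, -0.27 to 0.11 for Tgfb2 1438303_at, -0.27 to 0.24 for Tgfb2 1450922_a_at and -0.21 to 0.05 for Tgfb2 1450923_at. Those between experiments 3 and 1 ranged from -0.17 to 0.07 for Id1 1425895_a_at, -0.39 to 0 for Id3 1416630_at, -0.04 to 0.10 for Inhba 1458291_at and -0.24 to 0.12 for Tgfb1 1420653_at. In the same contrast they ranged from -0.37 to 0.08 for Tgfb2 1423250_a_at, -0.36 to 0.32 for Tgfb2 1438303_at, -0.31 to 0.23 for Tgfb2 1450922_a_at and -0.20 to 0.15 for Tgfb2 1450923_at. Those between experiments 3 and 2 ranged from -0.08 to 1.3 for Bmp2 1423635_at, -0.61 to 0.78 for Inhba 1422053_at, -0.10 to 0.18 for Tgfb1 1420653_at and -0.18 to 0.19 for Tgfb2 1423250_a_at. In the same contrast they ranged from -0.28 to 0.40 for Tgfb2 1438303_at, -0.30 to 0.24 for Tgfb2 1450922_a_at and -0.12 to 0.23 for Tgfb2 1450923_at. None of these was called.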

Other observations

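Sox9, the cartilage regulator that BMP signals can raise, differed between experiments on the same arrays. It stood at 5.35, 7.28 and 8.43 in controls and at 5.31, 7.15 and 7.64 in irradiated cultures. Experiment 1 was lowest in both arms and control 3 was highest. By limma Sox9 was 1.89 ± 0.19 higher in experiment 2 than in experiment 1 (adjusted p = 0.022) and 2.71 ± 0.19 higher in experiment 3 (adjusted p = 0.0022), and it did not pass between arms (-0.32 ± 0.15, adjusted p = 0.93). It was the 1 gene of 6 measured osteoblast and chondrocyte markers that passed in either contrast, and it was singled out after its values were seen. The 5 smooth muscle markers had list means of 7.63 to 8.14 and 0 passed in any contrast.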
